A study of Homo sapiens with 2 samples.

Results

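The genes described here encode the proteins that join epithelial cells to each other at tight junctions and adherens junctions, with a few genes of the epithelial programme that goes with them. They were chosen as every probe set whose single symbol was 1 of 41 listed claudin, tight junction, cadherin, catenin, nectin, polarity and epithelial genes. Another 6 probe sets carried a listed symbol together with others and were left out. Of the 41, 37 were represented, by 92 probe sets, among the 19775 genes with a probe set of a single symbol, while F11R, CDH4, CTNND1 and ESRP2 had none, so their expression was not analysed here. The RNA came from the established human cell line KYSE-140, from a squamous cell carcinoma of the esophagus, which was split by flow cytometry into cells with CD90 on their surface (CD90+) and cells without it (CD90-), with no treatment named for either. CD90 is the surface glycoprotein encoded by THY1. Each of the 2 groups is 1 RNA sample of 1 line, on 1 Affymetrix U133 Plus 2.0 array, so the values below have no replicate error, the populations cannot be compared by a test, and each difference describes these 2 samples.

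Tight junctions seal the space between neighbouring epithelial cells. Claudins form the strands and set which ions pass, occludin and the MARVEL domain proteins run in the same strands, and ZO proteins and cingulins tie them to actin. Adherens junctions lie just below: cadherins bind their like on the next cell and hold beta- and alpha-catenin inside, while nectins bind across the gap and are held by afadin. Polarity complexes of the Crumbs and PAR proteins place this belt at the apical edge. Loss of E-cadherin and its partners, and a switch to N-cadherin, are the textbook signs of epithelial-mesenchymal transition, and esophageal squamous epithelium normally carries E-cadherin, P-cadherin and several claudins.

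Values are MAS5 signals, on a linear scale. Both arrays had a trimmed mean of 499.9, from which a scaling of each array to a common mean by the authors was inferred, and their medians were 72.1 (CD90+) and 71.1 (CD90-). Signals below a floor of 71.6, the midpoint of both medians on the log scale, were set to it before a ratio was taken, and a gene counted as measured if the probe set that stood for it, the brightest of those less prone to cross-hybridisation, reached the floor on at least 1 array. Ratios are CD90+ over CD90- on the log2 scale. THY1 was higher in the CD90+ sample on all 3 of its probe sets, the brightest non-cross-hybridising one at 293 against 78.9. Of 11 squamous epithelial markers the 8 with a probe set were measured, with signals between 1553 and 27407 and with 0 beyond 2-fold. Of 9 fibroblast markers 2 were measured, COL1A1 at 2125 against 1240 and PDGFRA at 107 on both arrays; the list's summed signal was 2425 in CD90+ and 1482 in CD90- cells, and COL1A2, COL3A1, COL6A3, DCN, LUM, PDGFRB and FAP stayed at or below 47.5 on the probe sets that stood for them and under the floor on all others. Of 6 endothelial markers 2 were measured (summed signal 378 against 242), and of 6 leukocyte markers 0, the highest signal among the 4 with a probe set being 57.3. The part of COL1A1-expressing cells in the results below was not tested. Since these are bulk RNA samples, fewer cells of a kind and less RNA per cell cannot be told apart.

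Few junction genes differed by 2-fold, a share near that of all genes. Of the 37 represented genes 30 were measured, 29 of them with both signals at the floor or higher. None was at least 2-fold higher in CD90+ cells, where 2.47% of all 12466 measured genes were, and 1 was at least 2-fold lower, NECTIN4, where 1.75% of all genes were. At 1.5-fold, 3 members were higher (CGNL1, CDH3 and PARD3) against 7.37% of all genes, and 3 were lower (NECTIN4, CGN and MAP7) against 6.76%, so that 24 of 30 (80%) lay within 1.5-fold, against 85.9% of all genes. Within 1.2-fold lay 15 (50%), against 56.7%, so by these counts the members were no nearer to equal than all genes. The members had a median log2 ratio of -0.066, against 0.010 for all measured genes, and the middle span from the lower to the upper quartile ran from -0.30 to 0.094, against -0.22 to 0.23. Ratios were below 0 in 19 members and above 0 in 11, where 48.8% of all genes were below 0. Of the 60 measured probe sets of members 40 were below 0 and 20 above. The share over all probe sets was not taken, and a gene with several probe sets counts several times here. These counts describe the list on these arrays, since genes of 1 pair of samples are not replicates.

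**Figure D1:**
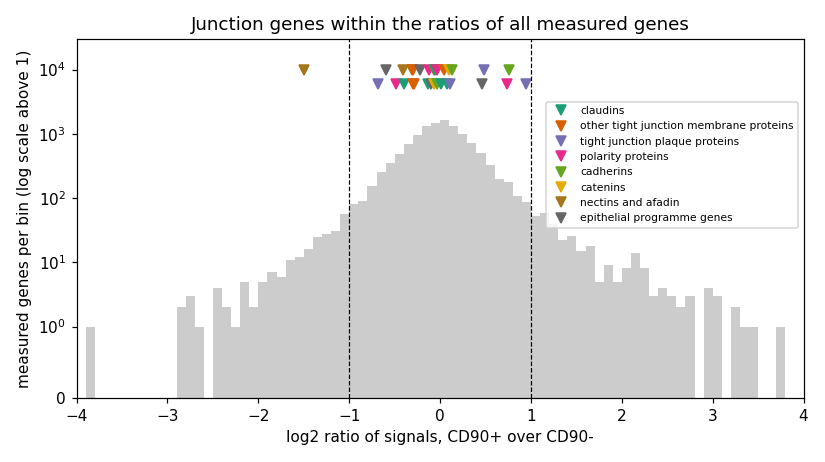
Grey bars count all 12466 measured genes by log2 ratio of signals, CD90+ over CD90- (vertical axis on a log scale above 1), and each triangle is 1 of the 30 measured junction genes, coloured by role and set at 2 heights only to part them. Dashed lines mark 2-fold; NECTIN4, at -1.49, is the only triangle outside them.

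Promoter sequence is shown for 4 genes. NECTIN4 was the single member past 2-fold, and the related cingulin genes CGN and CGNL1 had ratios of opposite signs. CRB3 held the most E-box words of the 28 listed genes with a promoter in the table. It lay inside 1.5-fold and was picked by that count. Each run is the 250 bases before the annotated start, 5′ to 3′ on the gene's strand, from RefSeq on GRCh38.p14. Capitals mark CAGGTG on either strand, the E-box bound by SNAI, ZEB and related repressors of junction genes, and AACCNGTT on either strand, the site of the grainyhead factors GRHL1 to GRHL3, which are known activators of junction genes. The windows are chr1:161089559-161089808 (minus strand) for NECTIN4, chr1:151511137-151511386 (plus strand) for CGN, chr15:57376255-57376504 (plus strand) for CGNL1 and chr19:6464021-6464270 (plus strand) for CRB3.
NECTIN4: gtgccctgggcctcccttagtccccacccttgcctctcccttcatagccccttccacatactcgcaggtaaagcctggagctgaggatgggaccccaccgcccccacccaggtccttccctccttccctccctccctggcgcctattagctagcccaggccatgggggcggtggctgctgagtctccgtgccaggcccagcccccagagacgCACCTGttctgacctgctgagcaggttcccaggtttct
CGN: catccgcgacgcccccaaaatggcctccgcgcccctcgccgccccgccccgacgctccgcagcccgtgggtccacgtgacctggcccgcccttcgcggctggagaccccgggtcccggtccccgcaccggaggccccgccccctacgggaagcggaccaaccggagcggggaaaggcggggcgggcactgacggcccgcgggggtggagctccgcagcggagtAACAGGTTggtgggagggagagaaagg
CGNL1: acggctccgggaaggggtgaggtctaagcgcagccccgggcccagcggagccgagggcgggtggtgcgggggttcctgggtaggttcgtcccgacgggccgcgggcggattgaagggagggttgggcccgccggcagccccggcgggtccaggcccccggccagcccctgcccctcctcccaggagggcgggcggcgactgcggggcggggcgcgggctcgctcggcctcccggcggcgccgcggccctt
CRB3: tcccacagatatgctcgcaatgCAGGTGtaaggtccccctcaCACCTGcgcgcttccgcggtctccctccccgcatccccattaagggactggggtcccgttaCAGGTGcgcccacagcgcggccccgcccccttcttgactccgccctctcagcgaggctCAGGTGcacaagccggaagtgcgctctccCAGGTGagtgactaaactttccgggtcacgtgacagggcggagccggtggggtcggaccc
In these windows NECTIN4 held 1 E-box word, beginning 38 bases before the start, CGN 1 grainyhead word, 27 bases before it, CGNL1 neither, and CRB3 5 E-box words between 228 and 60 bases before it. CLDN7 and AFDN, not shown, held 4 E-box words each in 1 window, and their log2 ratios were 0.071 and -0.41. The CGN window held the only grainyhead word among the listed genes' windows and 0 E-box words, so an overlap of both words could not occur. The table held promoters of 28 of the 41 listed genes, CDH4 among them, in 46 windows since some genes have several starts; CDH1, CDH3, PARD3, EPCAM and ESRP1 were among the genes not in it. An E-box word lay in 13 of the 46 windows (28.3%), against 17.5% of all 35116 windows of that length, and a grainyhead word in 1 (2.17%), against 1.49%. Counted by gene, 12 of the 28 genes (42.9%) had an E-box word in at least 1 window, against 20.6% of the 27305 genes. A gene with more windows has more places for a word. The listed genes had 46 windows for 28 genes, and all genes 35116 for 27305, so the 2 shares are not on equal terms. The 12 include CDH4, not analysed here, and CLDN18, under the floor. A word is a run of letters, not a shown binding site, and these shares were not tested.

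Claudins, the strand proteins, were measured for 5 of the 11 listed, and none of these passed 1.5-fold. CLDN1, the claudin of stratified epithelia, read 328 in the CD90+ and 430 in the CD90- sample (-0.39). CLDN7, which partners EPCAM, read 2581 against 2456 (0.071), and CLDN4, a barrier-forming claudin, 305 against 318 (-0.060). CLDN12, an atypical claudin, read 902 against 990 (-0.13). CLDN11, best known from myelin and the testis, was at the floor on both arrays, at 72.9 against 72.2, on the probe set that stood for it. Its others read 80.0 against 49.5 and 0.72 against 1.66. CLDN3, CLDN8, CLDN10, CLDN16, CLDN18 and CLDN23 stayed under the floor, and so did the mesenchymal cadherin CDH11. These 7 genes had 17 probe sets, whose signals ran from 0.56 to 57.1, so a change in them was not detectable here. The highest of these signals was a CLDN3 probe set of the cross-hybridising class, just below the floor as CLDN11 was just above it. CLDN1 and CLDN16 lie next to each other on chromosome 3, and CLDN3 and CLDN4 on chromosome 7; in both pairs 1 gene was measured and its neighbour was under the floor in both populations.

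Of the other strand proteins, 3 of 4 measured members had slightly lower signals in the CD90+ sample. OCLN, or occludin, read 2146 against 2630, a log2 ratio of -0.29. LSR, the lipolysis-stimulated receptor that marks tricellular corners, read 1551 against 1886 (-0.28), and MARVELD3 546 against 672 (-0.30). MARVELD2, or tricellulin, which sits at the same corners and is the gene next to OCLN on chromosome 5, read 3299 against 3198 (0.045). The probe sets of these genes were split: OCLN had 3 of 4 below 0 and 1 above, from -0.40 to 0.19, MARVELD3 2 of 3 below 0 and 1 at 0.43, and MARVELD2 both above 0, the dimmer at 0.61. LSR had only 1.

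Among the plaque proteins the 2 cingulins went in opposite directions. CGN, or cingulin, which links tight junctions to actin and to RhoA control, was 1.61-fold lower in CD90+ cells (252 against 405, log2 ratio -0.68), and its second probe set gave 93.0 against 147 (-0.66). CGNL1, or paracingulin, found at tight and adherens junctions alike, read 138 in CD90+ and 67.3, under the floor, in CD90- cells, at least 1.93-fold higher (0.95). Its second probe set read 78.4 against 24.5, on which the floor leaves at least 1.09-fold. CGNL1 was the 1 member measured through its brighter population alone, here CD90+. A gene that reached the floor in CD90+ cells alone could enter the count only as higher, and in CD90- cells alone only as lower. TJP1, or ZO-1, the main scaffold of the plaque, read 3579 against 3329 (0.10), with its second probe set at -0.035. TJP3, or ZO-3, read 144 against 103 (0.49) on the probe set that stood for it, while its other was under the floor.

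Polarity genes had PARD3 on the higher side and CRB3 on the lower. PARD3, the PAR-3 scaffold that recruits the PAR-6 and atypical PKC complex to junctions, was 1.67-fold higher in CD90+ cells (3267 against 1957, 0.74) on the probe set that stood for it. Its other 3 probe sets did not share that size: they read 2769 against 2472 (0.16), 752 against 660 (0.19) and 455 against 524 (-0.20), and PARD3 had the widest spread of probe sets of any member. CRB3, the Crumbs protein of epithelia and a known target of SNAI repressors, was 1.40-fold lower (585 against 817, -0.48) on its only probe set. PATJ, which binds the Crumbs complex to ZO-3 and claudins, read 1242 against 1348 (-0.12), and all 4 of its measured probe sets were below 0. The furthest, at -0.56, read 68.4 against 105. Its CD90+ signal was under the floor, so it could count only as lower, and the size of its ratio is a lower bound. PARD6B, a PAR-6 protein, read 265 against 272 (-0.037).

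**Figure D2:**
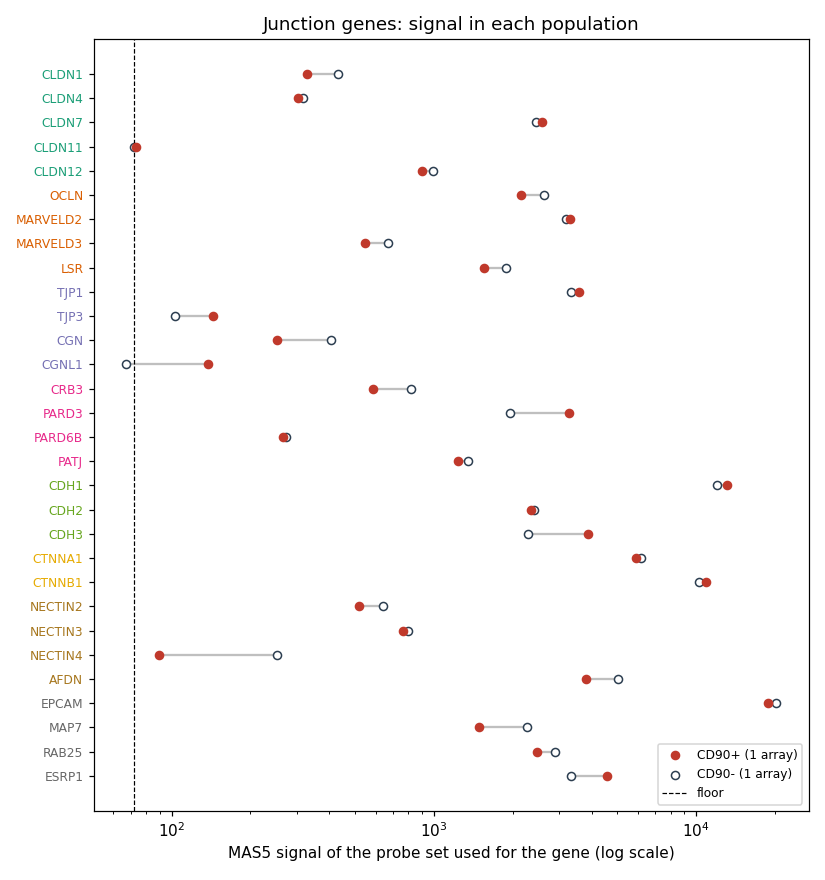
MAS5 signal (horizontal axis, log scale) in CD90+ (filled) and CD90- cells (open), 1 array each, of the probe set that stood for each of the 30 measured junction genes, with names coloured by role and the dashed line at the floor of 71.6. Most pairs touch or lie close, with NECTIN4 (89.3 against 251), CGN and CGNL1 visibly apart at low signal and CDH3, PARD3 and MAP7 at higher signal; levels of different genes are read by different probes and cannot be ranked.

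Of the cadherins, E- and N-cadherin were close to equal in both populations and P-cadherin was higher in CD90+ cells. CDH1, or E-cadherin, the main adhesive protein of epithelia, read 13150 in CD90+ and 11992 in CD90- cells (0.13), and its second probe set was under the floor in both. CDH2, or N-cadherin, read 2340 against 2404 (-0.039), and 145 against 161 (-0.15) on its second probe set, so N-cadherin transcript was measured in both. CDH3, or P-cadherin, the cadherin of basal squamous cells, was 1.69-fold higher in CD90+ cells (3860 against 2291, 0.75) on its only probe set. CDH3 and CDH1 lie next to each other on chromosome 16 with no protein-coding gene between them. The medians of the 50 genes nearest to each were 0.099 and 0.069, so the ratio of CDH3 was not shared by its neighbourhood. CDH11, the cadherin of mesenchymal cells, was under the floor on all 4 of its probe sets.

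The catenins, which tie cadherins to actin, differed little. CTNNB1, or beta-catenin, also the effector of Wnt signalling, read 10973 against 10230 (0.10), with its other probe sets at -0.057 and -0.12. CTNNA1, or alpha-catenin, read 5889 against 6154 (-0.064), and all 5 of its probe sets were below 0, from -0.29 to -0.0024.

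Nectins and afadin are the second adhesion system of the adherens junction. The 4 listed genes of it were all below 0, where 48.8% of all genes were. Outside the list, NECTIN1 read 738 against 774 (-0.069), with its other measured probe set at 0.56. PVR, a relative of the nectins, read 618 against 430 (0.52), with all 4 measured probe sets above 0. NECTIN4, a nectin of embryonic and tumour epithelium that antibody-drug conjugates target, read 89.3 in CD90+ and 251 in CD90- cells, 2.82-fold lower (-1.49). Both values were above the floor, the lower of them only just, and the gene has 1 probe set, so no second reading exists. AFDN, or afadin, which holds nectins to actin, read 3809 against 5049 (-0.41), and its other 2 measured probe sets were lower as well, at -0.33 and -0.53. NECTIN2 read 520 against 643 (-0.30) and 308 against 416 (-0.43) on its 2 measured probe sets. NECTIN3, which binds nectins of the other kinds across the gap, read 762 against 799 (-0.068), and its second probe set went the other way, at 0.15, so that the mean of both was 0.041 and only 3 of 4 genes were then below 0.

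The epithelial genes that accompany junctions were mixed. MAP7, or ensconsin, a microtubule protein of epithelia that brings kinesin to its track, was 1.51-fold lower in CD90+ cells (1493 against 2261, -0.60), and its other 2 probe sets read 515 against 880 (-0.77) and 445 against 703 (-0.66). Like CGN it was past 1.5-fold on all of its measured probe sets. EPCAM, the epithelial adhesion molecule bound to CLDN7, read 18886 against 20209 (-0.098) on 1 probe set. RAB25, a GTPase of apical recycling, read 2484 against 2901 (-0.22). ESRP1, the splicing factor that keeps epithelial isoforms, read 4587 against 3344 (0.46) and, on its second probe set, 2982 against 2751 (0.12); isoforms themselves were not measured.

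**Figure D3:**
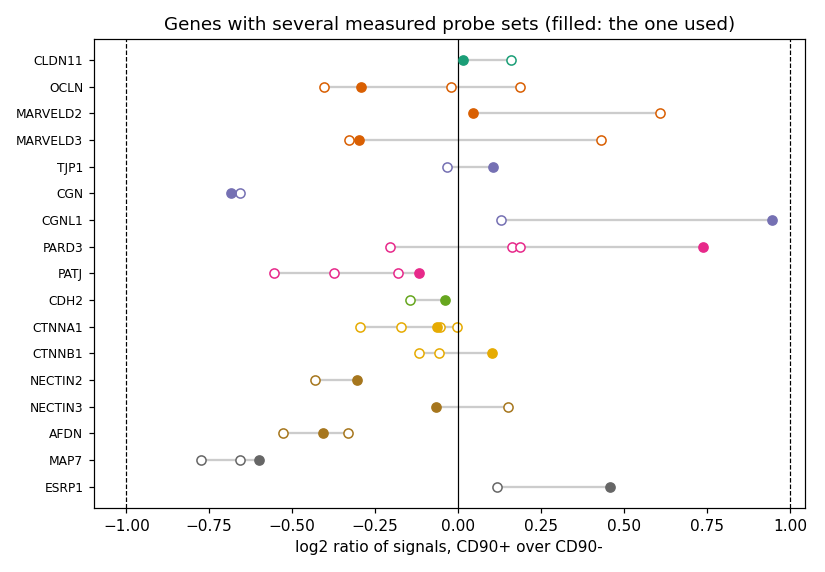
Log2 ratio, CD90+ over CD90-, of every measured probe set for the 17 junction genes with more than 1, coloured by role; the filled point is the probe set that stood for the gene and the grey line spans lowest to highest. CGN, MAP7, AFDN and NECTIN2 keep to the left of 0 with short spans, while PARD3, MARVELD2, MARVELD3 and OCLN spread widely. CGNL1 has a wide span as well, but both of its points are lower bounds set by the floor.

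With 1 array per group, the agreement of probe sets was the check on a gene's ratio that these data allow. It is not a measure of noise alone. Ratios bounded by the floor are included, and differences between transcripts of a gene were not separated. Over the 17 members with more than 1 measured probe set, ratios within a gene had a pooled SD of 0.25 on the log2 scale, against 0.31 over 6188 genes. All probe sets of a gene had the same sign in 11 of the 17, against 54.2% of all such genes. These spreads come from the same pair of arrays and cover neither an error of a whole array nor the sort. Of the 6 members past 1.5-fold NECTIN4 and CDH3 had 1 probe set each. The probe sets of PARD3 did not agree in size, and those of CGN and MAP7 did. Both CGNL1 probe sets were higher in CD90+ cells. Each had its CD90- signal under the floor, so the ratios are lower bounds and their sizes cannot be compared.

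Some small differences were shared by genes that lie near the member on its chromosome. For each gene the median ratio of its 50 nearest genes was taken, by distance between RefSeq start positions on the same chromosome. Only genes with both signals at the floor or higher served as neighbours. For the measured members this median ran from -0.31 to 0.15. It was below -0.2 for 4 of them: CLDN1 (-0.31), EPCAM (-0.31), LSR (-0.26) and CRB3 (-0.25). With the neighbours' median subtracted, CLDN1 was at -0.087, LSR at -0.026 and CRB3 at -0.23, while EPCAM turned from -0.098 to 0.21. For the 6 members past 1.5-fold the neighbours' median lay between -0.013 and 0.11, and NECTIN4 stood at -1.60, CGNL1 at 0.93, PARD3 at 0.70, CGN at -0.68, CDH3 at 0.65 and MAP7 at -0.59 after subtraction. In all, 17 of 30 members came nearer to 0. Neither this share nor that of medians below -0.2 was taken over all genes, so neither is read as particular to the members. The part of the chromosomal neighbourhood in these values was not tested.

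**Figure D4:**
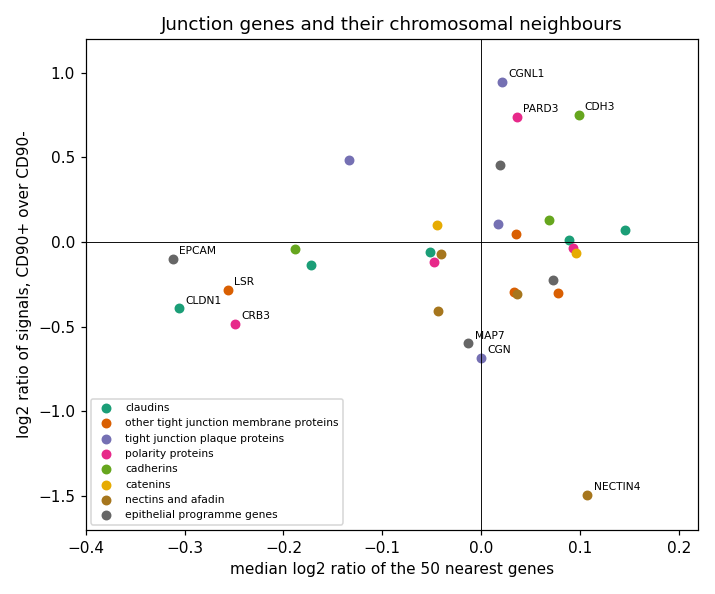
Each point is 1 of the 30 measured junction genes, coloured by role: its own log2 ratio, CD90+ over CD90-, on the vertical axis against the median log2 ratio of its 50 nearest genes on the horizontal axis. CLDN1, LSR, CRB3 and EPCAM sit at the left, among neighbours below -0.2, and the 6 members past 1.5-fold sit near 0 on the horizontal axis.

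Other genes of the same junctions were taken from lists of genes that are not members. Of 18 measured other tight junction genes 0 were beyond 2-fold (4.22% of all genes were), with a median of 0.086; the brightest were YBX3, a ZO-1-bound transcription factor, at 22478 against 20198, and RAB13, a junction-trafficking GTPase, at 3951 against 3187. Of 19 other polarity genes 0 were beyond 2-fold, with a median of -0.062, PRKCI, the atypical PKC that binds PAR-6, at 6552 against 6068 and DLG5 at 6226 against 6063. Of 27 other adherens junction genes 1 was beyond 2-fold, with a median of 0.0024: LMO7, an afadin-binding protein, at least 2.49-fold higher (178 against 43.3). Its CD90- signal was under the floor, so LMO7 could enter the count only as higher, and it had 1 measured probe set. In this list 3 measured genes had 1 signal under the floor. Of 6 other cadherins 0 were beyond 2-fold, with a median of -0.12, CDH18 at 321 against 506 and CDH8 at 233 against 273. Of 11 relatives and partners of EPCAM, RAB25 and MAP7 0 were beyond 2-fold, with a median of 0.073, CD9, a tetraspanin, at 21238 against 18398 and CD44 at 11302 against 9211. The plot of ratios by list shows each gene.

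Of the transcription factors known to act on junction genes, 3 of 14 measured were beyond 2-fold (4.22% of all genes were) and 7 beyond 1.5-fold (14.1%), with a median log2 ratio of -0.17. GRHL1 read 489 against 1180 (-1.27) and GRHL3 321 against 670 (-1.06), while GRHL2, the grainyhead factor best known for holding CDH1 and CLDN4 active, read 2727 against 2629 (0.053). The neighbours of GRHL1 had a median of -0.49, and those of GRHL3 -0.065. With these subtracted GRHL1 was at -0.79 and GRHL3 just inside 2-fold, at -0.998, so neither was then past the limit. TWIST1, an inducer of epithelial-mesenchymal transition, was 2.06-fold higher (634 against 307). Its relative TWIST2 read 765 against 410 (0.90) and SNAI2, or Slug, 3032 against 1822 (0.73), both under 2-fold. Other factors that can repress CDH1 were lower: TCF3, or E2A, read 1093 against 2155 (-0.98, with 8 of 10 measured probe sets below 0), TCF4, or E2-2, 2612 against 4206 (-0.69, among neighbours at -0.54) and KLF8 143 against 193 (-0.43). SNAI1, ZEB1 and ZEB2, the other classical repressors of CDH1, were under the floor on both arrays. A relation between these factors and the junction genes was not tested.

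**Figure D5:**
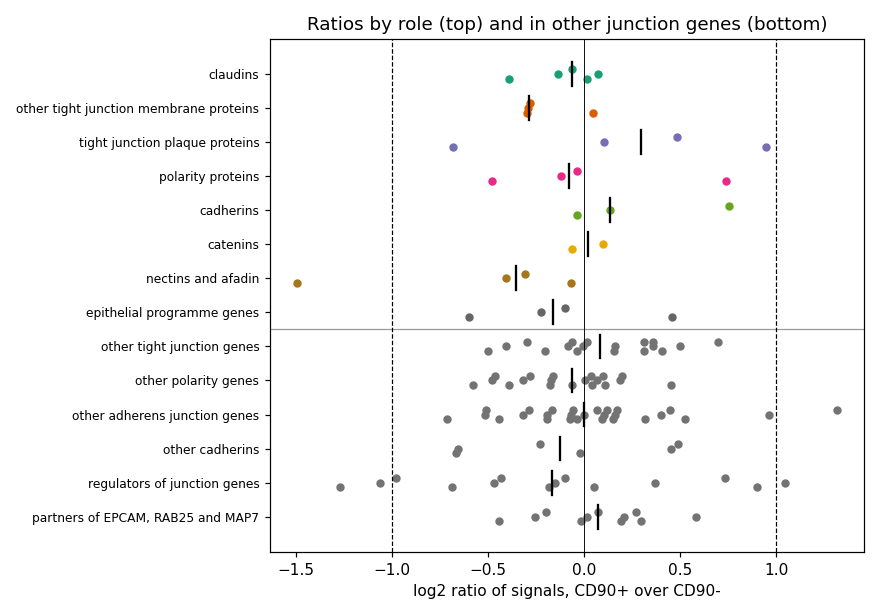
Log2 ratio, CD90+ over CD90-, of each measured gene (points) by role of the member genes (coloured, above the line) and in 6 lists of other genes (grey, below), with the list's median as a black bar and dashed lines at 2-fold. NECTIN4 among members, LMO7 among adherens junction genes and GRHL1, GRHL3 and TWIST1 among regulators lie outside the dashed lines; vertical offsets only part the points.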

How the data were processed

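The data are 2 arrays, 1 of CD90+ and 1 of CD90- KYSE-140 cells, grouped by the label of the sorted population. MAS5 was used by the authors, per the submitters' processing notes; it merges perfect-match and mismatch probes into 1 signal. The version is not given in the sources used here. Values were deposited by the authors as linear signal intensities of 54675 probe sets, 62 of them controls that were left out. Both arrays have the same 2 to 98% trimmed mean, 499.9, from which a common scaling by the authors was inferred, and they were compared as deposited, while MAS5's mismatch subtraction makes ratios of dim probe sets noisy. No scanner file or detection call was used.

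Symbols came from the platform annotation, updated through the gene identifier to RefSeq, GRCh38.p14; 41091 probe sets had a single symbol. Per gene the probe set with the highest mean log2 signal was used, with the _x_at class used only where there was no other. The log2 ratio was taken after a floor at the 50th percentile, 71.6, and 12466 genes reached it on either array. Counts were made at 2-fold and at 1.5-fold. With 1 array per group there is no test, interval or p-value, and the number of arrays limits the precision. All members are named; in the other lists genes beyond 2-fold are named, up to 4 each way, or the 2 brightest where there was none, and any further gene was chosen after its values were seen. The members and lists were chosen with earlier results of these data known. Steps were tested on simulated data. The alternatives were no floor, other floors, scalings, probe set choices, a filter on mean signal, subtraction of the 50 nearest genes and a 1.5-fold limit. Python 3.11.15, numpy 2.4.6, pandas 2.3.3, statsmodels 0.14.6 and matplotlib 3.10.9 were used.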

Additional observations from a re-analysis of the deposited data

How the results depend on the processing

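The median log2 ratio over the members, -0.066, stayed between -0.083 and -0.048 under all 11 alternatives run. Counts near the floor moved. With the floor at the 25th percentile 36 members were measured, 1 was at least 2-fold higher (CGNL1) and 2 at least 2-fold lower (NECTIN4 and CDH11). The CDH11 probe set used read 20.6 against 54.2, under the main floor. Its others read 24.7 against 1.79, 10.5 against 8.21 and 1.11 against 4.23, so the CDH11 probe sets did not share 1 direction. Without a floor 1 member was at least 2-fold higher, again CGNL1. With the floor at the 75th percentile, 397, only 24 members were measured, NECTIN4 not among them, and 0 were lower. At 1.5-fold 3 members were higher and 3 lower. NECTIN4 ran from -1.60 to -1.46 over the 10 alternatives in which it was measured. The mean over probe sets gave CGNL1 0.54 and PARD3 0.22, and the least changed probe set gave CGNL1 0.13, PARD3 0.16 and ESRP1 0.12. With the high floor CGN was at -0.030.

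Of genes beyond 2-fold in the other lists, tight junction genes numbered 3 with the low floor and 1 at 1.5-fold, where the main count was 0. Polarity genes numbered 1 with no floor and 1 with the low floor, against 0. Adherens junction genes numbered 2 with no floor, 2 with the low floor, 0 with the high floor, 2 by the mean of probe sets, 2 by the least changed probe set and 3 at 1.5-fold, against 1. Other cadherins numbered 1 with no floor, 3 with the low floor and 2 at 1.5-fold, against 0. Regulators numbered 4 with the low floor (ZEB1 added, at 1.10), 1 with the high floor and 7 at 1.5-fold, against 3. After subtraction of the neighbours' median the regulators beyond 2-fold were TWIST1 and TWIST2. No scaling alternative moved the median of all genes by more than 0.013. No paired analysis was possible because each group has 1 sample. Signals below the floor limit what can be said of 7 members.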
